A study of Homo sapiens with 8 samples.

Results

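The plasma cell identity genes are the transcription factors, antibody assembly proteins and surface antigens by which a plasma cell, and a myeloma cell derived from it, is recognised. They were chosen by symbol: 10 genes were listed, namely IRF4, PRDM1, XBP1, POU2AF1, MZB1, JCHAIN, SDC1, TNFRSF17, CD38 and SLAMF7, and for each the array row with the highest mean was to be taken. Of the 10 listed, 7 had a row with their symbol in the platform annotation, each with a single row, and all 7 passed the filter on low values; PRDM1, TNFRSF17 and JCHAIN were not analysed here. The 7 are among 12734 genes tested, out of 14884 genes with a named row. RNA was taken from MM1.S and NCI-H929 (NCIH929 in the labels), 2 established lines of human multiple myeloma, a cancer of plasma cells. In both lines the cells expressed a short hairpin RNA, which was either a scramble control (shSCR) or directed at SIRT6 (shSIRT6), an NAD-dependent chromatin deacetylase. Every one of the 4 groups has 2 arrays, so all 8 arrays carry a hairpin construct and no untreated parental cells are among them. The sources used here do not give the hairpin sequence, its vector or the time after its introduction. The labels leave unsaid whether the 2 arrays of a group hold RNA of different cultures, and p-values then measure only how these arrays scatter, which may be technical scatter.

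IRF4 is the transcription factor on which myeloma cells of many kinds depend. It acts beside PRDM1 (Blimp-1), which silences the B cell programme, and XBP1, which expands the secretory apparatus after its mRNA is spliced by the stress sensor IRE1. POU2AF1 (OCA-B) is a coactivator that works with octamer-binding proteins. MZB1 and JCHAIN serve the assembly of antibody. SDC1 (the heparan sulfate proteoglycan CD138), TNFRSF17 (BCMA, a receptor for the ligands BAFF and APRIL), CD38 (an ectoenzyme that consumes NAD) and SLAMF7 lie on the cell surface, and several of them are targets of antibodies or engineered T cells used against myeloma.

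With shSIRT6, SDC1 was called higher in MM1.S, by a log2 difference of 0.52 ± 0.0908 (SE), a 1.43-fold change. That call was lost in several alternative fits given below, among them those with no filter and with the replicate block. None of the other 6 was called in either line. Of all tested genes, 1.33% were called between constructs in MM1.S and 0.0236% in NCI-H929. The lines themselves differed more: with the scramble construct XBP1, SDC1 and CD38 were higher and SLAMF7 lower in NCI-H929 than in MM1.S. In that comparison 38.3% of all tested genes were called. A gene is called when its Benjamini-Hochberg adjusted p in limma, over all 12734 genes, is below 0.05. Levels are RMA values on the log2 scale, and the error beside a difference is the standard error from limma.

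Across all rows, median levels ran from 3.88 to 3.97 per array. Correlations were 0.989 to 0.992 within a group, 0.985 to 0.989 between the constructs of a line and 0.942 to 0.950 across lines. SIRT6 itself had log2 levels of 6.09 and 5.88 with scramble against 5.60 and 5.78 with shSIRT6 in the MM1.S cells, and of 6.53 and 6.97 against 6.25 and 6.31 in NCI-H929. Its shSIRT6 arrays lay below its scramble arrays in both lines, but the differences of -0.295 and -0.47 were not called (limma, adjusted p = 0.355 and 0.276), so the row gives lower readings without a call for the targeted gene. Leaving out 1 array moved these values by over 1.5 times. The MM1.S value became -0.19 when its first scramble array was dropped, and the NCI-H929 value became -0.25 on dropping its second. In bulk RNA of this kind, fewer cells that express a gene and less RNA per cell cannot be told apart.

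**Figure D1:**
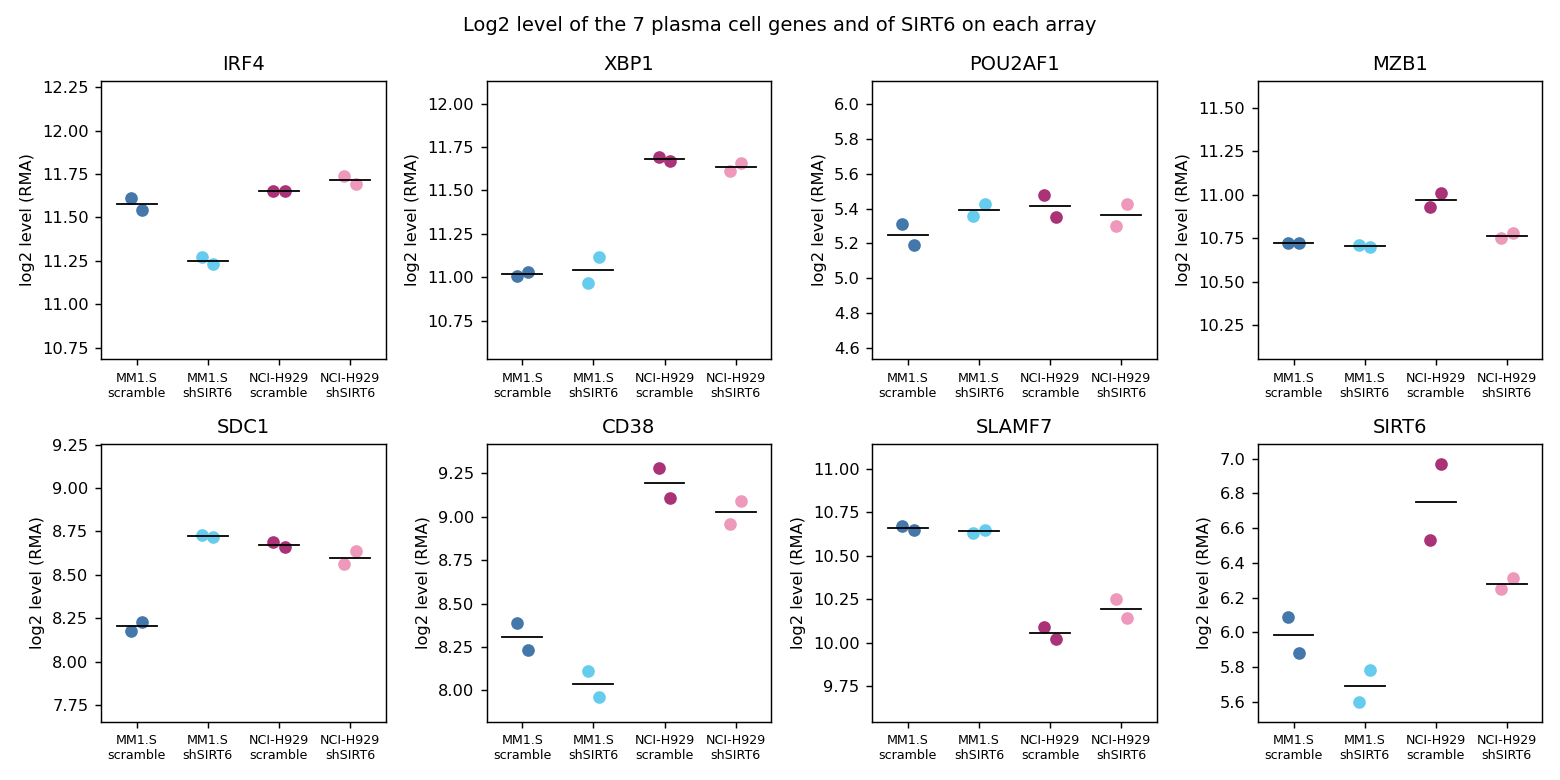
Log2 level (RMA, vertical axis, a range of equal width in each panel) of the 7 plasma cell genes and of SIRT6 on the 8 arrays; each point is 1 array and each line the mean of the 2 arrays of a group. IRF4 sits lower and SDC1 higher in MM1.S with shSIRT6 than with scramble, while XBP1, CD38 and SLAMF7 separate by line.

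Of the 4 listed transcription factors, 3 were measured, and the construct contrast called none of them in either line. IRF4 had log2 levels of 11.61 and 11.54 with scramble against 11.27 and 11.23 with shSIRT6 in MM1.S. Both shSIRT6 arrays lay below both scramble arrays there, where 50.7% of all tested genes separated in 1 direction or the other. The difference was -0.325 ± 0.0905 (95% interval -0.54 to -0.11) and was not called over all genes (limma, adjusted p = 0.121). In NCI-H929 IRF4 read 11.65 and 11.65 with scramble against 11.74 and 11.69 with shSIRT6, a difference of 0.065 ± 0.0905 (adjusted p = 0.771). The difference between the 2 effects, 0.39 ± 0.128, was not called (limma, adjusted p = 0.262).

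The call of IRF4 depends on how limma's prior spread is set. The residual SD of IRF4 over the 8 arrays was 0.0335, smaller than that of all but 1.5% of tested genes, while the constant prior SD was 0.128. With a prior that follows the level of the gene, the prior SD at the level of IRF4 was 0.0468. Under it the difference in MM1.S had an adjusted p of 0.000567 and the difference of the 2 shSIRT6 effects one of 0.00367 (limma). The same setting called 7.48% of all tested genes in MM1.S, against 1.33% with the constant prior.

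XBP1 read 11.01 and 11.03 with scramble against 10.97 and 11.12 with shSIRT6 in MM1.S, so the groups overlapped. The difference was 0.025 ± 0.0965 (95% interval -0.20 to 0.25). In NCI-H929 the levels were 11.69 and 11.67 with scramble against 11.61 and 11.66 with shSIRT6, a difference of -0.045 ± 0.0965 (95% interval -0.27 to 0.18). Neither was called (limma, adjusted p = 0.909 and 0.855). The row gives 1 value for the whole gene and does not separate spliced from unspliced XBP1 mRNA.

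POU2AF1 read 5.31 and 5.19 with scramble against 5.36 and 5.43 with shSIRT6 in MM1.S. The NCI-H929 arrays gave 5.48 and 5.35 for scramble, then 5.30 and 5.43 for shSIRT6. Its differences of 0.145 ± 0.106 and -0.05 ± 0.106 were not called (limma, adjusted p = 0.482 and 0.853), and its 4 groups followed each other from 5.25 to 5.415 in mean level with overlapping arrays at every step.

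MZB1, a chaperone-like protein of the endoplasmic reticulum that helps antibody assembly and secretion, differed by -0.015 ± 0.0899 in MM1.S. Its arrays there read 10.72 and 10.72 with scramble against 10.71 and 10.70 with shSIRT6. In NCI-H929 it read 10.93 and 11.01 with scramble against 10.75 and 10.78 with shSIRT6. The groups did not overlap there, as for 46.6% of all tested genes. That difference, -0.205 ± 0.0899 (95% interval -0.42 to 0.005), was not called with the constant prior (limma, adjusted p = 0.355) and had an adjusted p of 0.0490 with the prior that follows the level. The difference between the effects in the 2 lines was -0.19 ± 0.127 (adjusted p = 0.543).

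Of the 4 surface antigens, SDC1, CD38 and SLAMF7 were measured. SDC1 carries the heparan sulfate chains through which plasma cells bind growth factors and matrix. In MM1.S it read 8.18 and 8.23 with scramble against 8.73 and 8.72 with shSIRT6, which are the lowest and the highest of its 4 groups. It rose by 0.52 ± 0.0908 (95% interval 0.31 to 0.73; limma, adjusted p = 0.0461), and 94.4% of tested genes had a smaller absolute difference in that contrast. In NCI-H929 it read 8.69 and 8.66 with scramble against 8.56 and 8.64 with shSIRT6, a difference of -0.075 ± 0.0908 that was not called (adjusted p = 0.730). The difference between the 2 effects was -0.595 ± 0.128 and was not called with the constant prior (adjusted p = 0.153), while the prior that follows the level gave 0.00387.

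Over 17 alternatives the difference in MM1.S stayed between 0.495 and 0.57, and the call was lost in 11 of them, among them each of the 8 fits that leave out 1 array, with adjusted p up to 0.266. It was the smallest absolute difference called in MM1.S, where the 169 called genes are 1.33% of those tested and the 26 called higher are 0.204%. The genes called lower there are 1.12%.

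CD38 breaks down NAD outside the cell, the cofactor that SIRT6 uses inside it. In MM1.S it read 8.39 and 8.23 with scramble against 8.11 and 7.96 with shSIRT6, and in NCI-H929 9.28 and 9.11 against 8.96 and 9.09. In both lines each shSIRT6 array lay below each scramble array. Of all tested genes, 50.7% separated in 1 direction or the other in MM1.S and 46.6% in NCI-H929. The differences were -0.275 ± 0.118 in MM1.S and -0.17 ± 0.118 in NCI-H929, with no call in either (limma, adjusted p = 0.256 and 0.535). The NCI-H929 value ran from -0.255 to -0.085 when 1 array was left out, nearest to 0 without its scramble replicate 1. Averaged over the lines CD38 was lower by -0.2225 ± 0.0833 (95% interval -0.42 to -0.028), also not called (adjusted p = 0.194, and 0.0459 with the prior that follows the level).

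SLAMF7, a self-binding receptor of the SLAM family and the target of elotuzumab, read 10.67 and 10.65 with scramble against 10.63 and 10.65 with shSIRT6 in MM1.S. In NCI-H929 it read 10.09 and 10.02 with scramble against 10.25 and 10.14 with shSIRT6, with no overlap (46.6% of all tested genes). The differences of -0.02 ± 0.0937 and 0.14 ± 0.0937 were not called (limma, adjusted p = 0.928 and 0.523), and their 95% intervals ran from -0.24 to 0.20 and from -0.079 to 0.36.

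**Figure D2:**
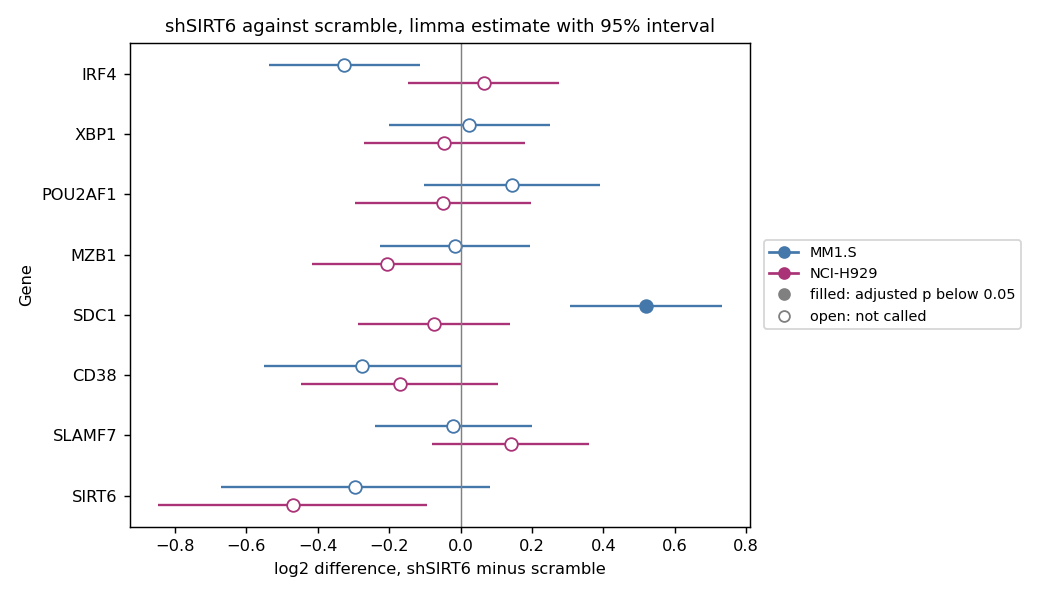
Log2 difference between shSIRT6 and scramble (horizontal axis) for the 7 plasma cell genes and SIRT6 in MM1.S and NCI-H929; points are limma estimates from 2 arrays per group, bars are 95% intervals and filled points are called. SDC1 in MM1.S, at 0.52, is the filled point, and the interval of IRF4 in MM1.S lies below 0.

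In MM1.S 1 of the 7 genes was called (1.33% of all tested genes), 2 had an unadjusted p below 0.05 (19.6% of all), and the arrays of the 2 constructs did not overlap for 5 of 7 (50.7% of all). In NCI-H929 0 of 7 were called in limma (0.0236% of all), 0 had an unadjusted p below 0.05 (14.5% of all), and 6 of 7 did not overlap (46.6% of all). The prior that follows the level called 1 there (1.52% of all) and 2 in MM1.S. The median difference over the 7 was -0.015 in MM1.S and -0.05 in NCI-H929, where the medians over all tested genes were 0.005 and -0.045. The median absolute difference was 0.145 in MM1.S and 0.075 in NCI-H929, against 0.165 and 0.145 over all tested genes. For the mean of both lines and for the difference between them, 0 of 7 were called in limma (0.0864% and 0.204% of all), with 2 each at an unadjusted p below 0.05 (21.3% and 13.8% of all). The prior that follows the level called 3 and 2 there, when it called 7.15% and 3.38% of all tested genes.

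The 7 genes were also compared between the lines, once over the 4 scramble arrays and once over the 4 shSIRT6 arrays, 2 comparisons that share no array. With scramble 4 of 7 were called, 3 higher and 1 lower in NCI-H929, where 38.3% of all tested genes were called, 20.0% higher and 18.3% lower, and the arrays of the lines did not overlap for 7 of 7 (67.9% of all). With shSIRT6 4 of 7 were called, 3 higher and 1 lower, where 37.9% of all were, 18.4% higher and 19.5% lower, and 6 of 7 did not overlap (65.7% of all). The prior that follows the level called 41.8% and 41.1% of all tested genes. Both comparisons use arrays of the construct contrasts above.

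CD38 was higher in NCI-H929 by 0.885 ± 0.118 with scramble and by 0.99 ± 0.118 with shSIRT6 (limma, adjusted p = 0.000829 and 0.000479), 1.85-fold and 1.99-fold. XBP1 was higher there by 0.66 ± 0.0965 and 0.59 ± 0.0965 (adjusted p = 0.0013 and 0.00223). SLAMF7 was lower by -0.605 ± 0.0937 and -0.445 ± 0.0937 (adjusted p = 0.00168 and 0.00734). These 3 differed in the same direction with both constructs, and the arrays of the lines did not overlap for any of them.

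SDC1 and IRF4 were called between the lines with 1 construct each. SDC1 was higher in NCI-H929 with scramble, by 0.47 ± 0.0908 (limma, adjusted p = 0.00485), and read -0.125 ± 0.0908 with shSIRT6 (adjusted p = 0.332). IRF4 read 0.075 ± 0.0905 with scramble (adjusted p = 0.571) and was higher in NCI-H929 with shSIRT6, by 0.465 ± 0.0905 (adjusted p = 0.0051). The test of that change is the difference between the 2 construct effects given above, -0.595 for SDC1 and 0.39 for IRF4, not called with the constant prior. MZB1 read 0.25 ± 0.0899 and 0.06 ± 0.0899 and POU2AF1 0.165 ± 0.106 and -0.03 ± 0.106, none called (adjusted p = 0.0631, 0.652, 0.273 and 0.857); the prior that follows the level, and the stricter filter, called MZB1 with scramble.

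**Figure D3:**
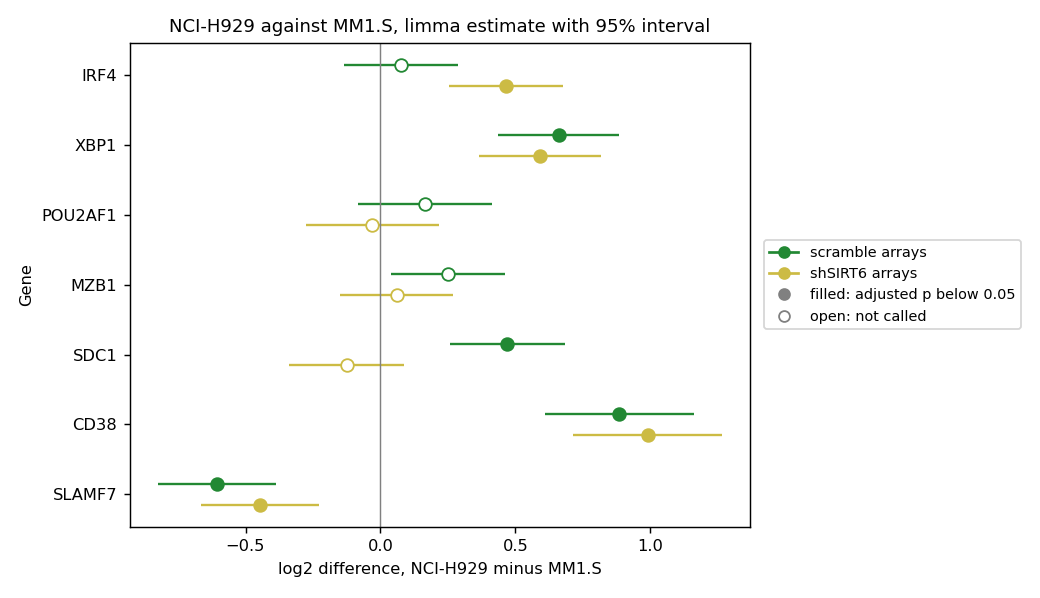
Log2 difference between NCI-H929 and MM1.S (horizontal axis) for the 7 plasma cell genes, over the scramble arrays and over the shSIRT6 arrays; points are limma estimates from 2 arrays per group, bars are 95% intervals and filled points are called. CD38 and XBP1 lie to the right and SLAMF7 to the left with both constructs, while SDC1 is filled with scramble and IRF4 with shSIRT6.

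In order of mean level, IRF4 ran from MM1.S with shSIRT6 (11.25) through MM1.S with scramble (11.575) and NCI-H929 with scramble (11.65) to NCI-H929 with shSIRT6 (11.715). Arrays of neighbouring groups did not overlap, but the last 2 steps were only 0.075 and 0.065. SDC1 was lowest in MM1.S with scramble (8.205), and its other 3 groups lay within 8.60 to 8.725. CD38 kept both MM1.S groups (8.035 and 8.31) below both NCI-H929 groups (9.025 and 9.195). XBP1 did so too, with the 2 MM1.S groups overlapping, and SLAMF7 held the reverse order, again with the 2 MM1.S groups overlapping. MZB1 spanned 10.705 to 10.97, with NCI-H929 with scramble the highest group and the other 3 within 0.06 of each other.

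Genes with the most similar profile were found by the root mean square distance between the 8 array values, each gene centred on its own mean, over all tested genes. For IRF4 they were SEC63, a translocation factor of the endoplasmic reticulum (0.0348), and HSPA9, the mitochondrial HSP70 chaperone (0.0357). For XBP1 they were the translation elongation factor EEF2 (0.0427) and NGLY1, a glycanase that acts on misfolded glycoproteins (0.0474). For SDC1 they were the receptor gene PRLHR (0.0669) and the transketolase gene TKT (0.0740). The likeness is a description of 8 arrays from 2 lines.

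Promoter sequences, 300 bases each with 250 before and 50 after the start site, were taken from RefSeq on GRCh38.p14, a different build from the array annotation. They covered 7 of the 10 listed genes and 10 start sites. These are not the 7 measured genes: POU2AF1, SLAMF7 and TNFRSF17 had no promoter entry, while PRDM1 and JCHAIN had one. None of the 10 windows (0) held the octamer ATGCAAAT, through which POU2AF1 is recruited, on either strand, and 1.77% of 35116 promoters did. None (0) held the interferon response motif of IRF factors, searched as GAAA, any 2 bases and GAAA (3.57% of all), or the unfolded protein response element TGACGTGG (0.729% of all). The shorter CCACGT, which covers the core of that element on the other strand, was in those of MZB1 and PRDM1 (9.72% of all), and in MZB1 it formed an overlapping pair on both strands. The GC box GGGCGG, a motif searched after the expression values were seen, was in 6 of the 10 windows, from IRF4, PRDM1, SDC1 and XBP1 (45.0% of all). A match is a run of letters and not a measured site. Stretches of the window at the outermost start site of SDC1 and IRF4 are shown because the largest construct differences of the 7 genes in MM1.S were in these 2, and that of MZB1 because it holds the CCACGT pair. Capitals mark GGGCGG or CCACGT on either strand. They are SDC1 at chr2:20225476-20225575 on the minus strand, IRF4 at chr6:391652-391751 on the plus strand, and MZB1 at chr5:139389994-139390063 on the minus strand. The SDC1 stretch has 1 GC box and 73.0% G and C, that of IRF4 has 3, a pair of them overlapping, and 70.0% G and C.
SDC1: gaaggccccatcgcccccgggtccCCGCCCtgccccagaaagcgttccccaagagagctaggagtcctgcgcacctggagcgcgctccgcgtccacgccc
IRF4: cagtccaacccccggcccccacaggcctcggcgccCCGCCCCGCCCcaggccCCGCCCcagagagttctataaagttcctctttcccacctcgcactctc
MZB1: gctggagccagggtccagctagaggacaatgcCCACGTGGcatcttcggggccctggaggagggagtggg

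The genes around these factors were then read from lists. Targets of XBP1 in the secretory pathway had mostly negative differences between shSIRT6 and scramble in both lines. Of 40 listed, 19 were tested. In MM1.S 18 of 19 had a negative difference, with a median of -0.225, where 49.1% of all tested genes were negative and their median was 0.005. In NCI-H929 17 of 19 were negative, with a median of -0.175, against 58.3% and -0.045 over all tested genes. Averaged over the lines all 19 were negative, with a median of -0.205 and a range of -0.41 to -0.028, where 54.9% of all tested genes were negative.

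The count of single genes called depends on the prior. With the constant prior 1 of 19 was called in MM1.S (1.33% of all tested genes), and 0 in NCI-H929 (0.0236%) and for the mean of the effects (0.0864%). With the prior that follows the level, limma called 6 of 19 in MM1.S (7.48% of all), 1 in NCI-H929 (1.52%) and 8 for the mean (7.15%), all of them lower. SRP54, the GTPase of the signal recognition particle, fell in MM1.S from 7.63 and 7.57 to 7.09 and 6.95, by 0.58 ± 0.0974 on the log2 scale (limma, adjusted p = 0.0452), the 1 call with the constant prior. In NCI-H929 it read 7.71 and 7.69 with scramble against 7.77 and 7.70 with shSIRT6, and none of the 19 was called (limma, 0). ARFGAP3, a GTPase-activating protein of Golgi transport, read 9.35 and 9.34 with scramble against 8.72 and 8.79 with shSIRT6 in MM1.S, a difference of -0.59 (adjusted p = 0.0533). The coat protein SEC23B (-0.48, adjusted p = 0.0876) and the Golgi protein GOLGB1 (-0.47, adjusted p = 0.0852) were not called there. The amount depends on scaling. After quantile normalization the medians were -0.15 and -0.10 (all tested genes 0.0137 and -0.0066), with 18 and 14 of 19 negative. After cyclic loess they were -0.19 and -0.094 (all tested genes -0.0191 and -0.0238), with 17 and 13 negative. In NCI-H929 the median minus that of all tested genes was -0.0699 after cyclic loess, against -0.13 as deposited. Without shSIRT6 replicate 2 of MM1.S the median there was -0.12, without scramble replicate 2 of NCI-H929 the median in that line was -0.115, and the SRP54 call was lost in 12 of 17 alternatives.

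**Figure D4:**
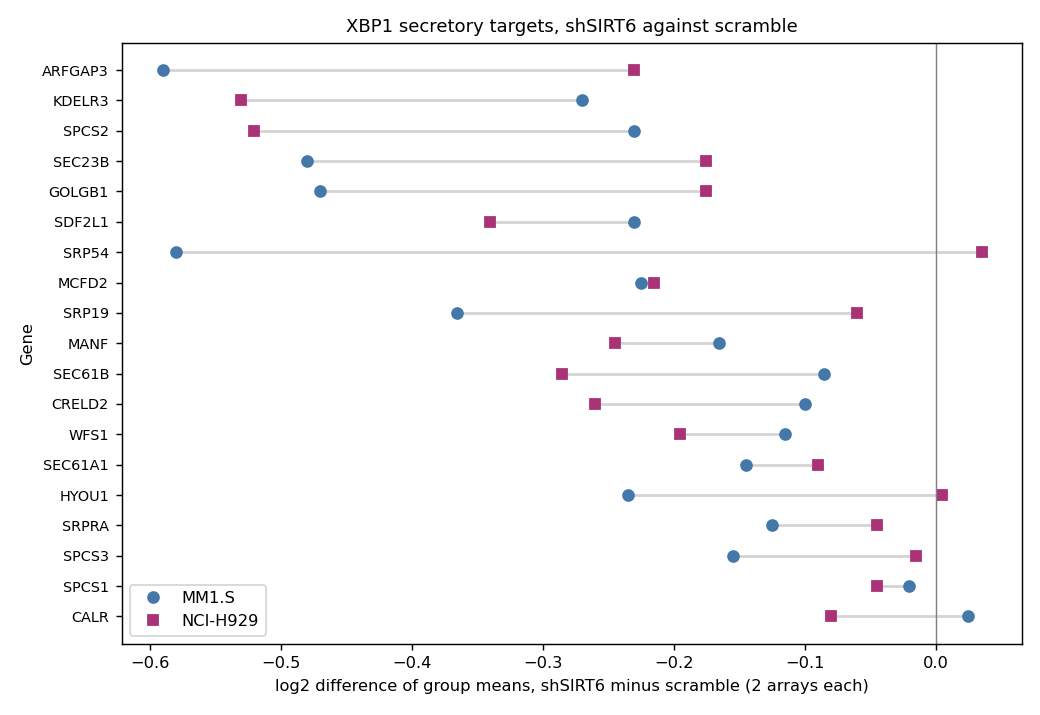
Log2 difference of group means between shSIRT6 and scramble (horizontal axis) for the 19 tested XBP1 secretory targets, circles for MM1.S and squares for NCI-H929, with a grey line joining the 2 lines for each gene. In MM1.S 18 of 19 points and in NCI-H929 17 of 19 lie below 0.

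Genes listed around IRF4 and POU2AF1 include partners and genes that IRF4 is known to drive, but not every listed gene is one of these. They had 0 calls among 17 tested in MM1.S (limma, 1.33% of all tested genes) and in NCI-H929 (0.0236% of all). A negative difference was found for 9 and 12 of them (49.1% and 58.3% of all), and the medians were -0.015 and -0.105. MYC, the best known of them, had group means of 9.735 and 9.74 in MM1.S and 10.55 and 10.44 in NCI-H929. By the naming rule, KLF2, a factor of lymphocyte quiescence, read 0.455 ± 0.102 in MM1.S (adjusted p = 0.0828), CRBN, the target of thalidomide analogues, -0.32 ± 0.0968 (adjusted p = 0.144) and SCD, a fatty acid desaturase, 0.27 (adjusted p = 0.180), while the cell cycle kinase CDK6 read -0.275 ± 0.0930 in NCI-H929 (adjusted p = 0.274).

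Other plasma cell genes, 16 tested of 26 listed, had 0 calls between constructs in either line (limma). Over all tested genes 1.33% were called in MM1.S and 0.0236% in NCI-H929, so 0 is no result about a list of this size. The medians were 0.0425 and -0.0925, against 0.005 and -0.045 over all tested genes. The adhesion molecule CADM1 read 8.28 and 8.33 with scramble against 7.51 and 7.69 with shSIRT6 in MM1.S, a difference of -0.705 ± 0.139 (adjusted p = 0.0635), and -0.35 ± 0.139 in NCI-H929 (adjusted p = 0.320). FCRL5, an Fc receptor-like antigen, read 3.35 and 3.30 against 2.73 and 2.72 in MM1.S, the latter under the filter level of 3.045, so that its probes may not be above background there. MYBL1 (-0.36, adjusted p = 0.115) and the kinase PIM2 (0.26, adjusted p = 0.184) were not called in MM1.S.

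B cell genes that plasma cells turn down were read in the same way. The mean log2 level over the 19 with a named row ran from 4.42 to 4.64 per array. It covers unlike levels, from 2.46 for CD24 in MM1.S with shSIRT6 to 8.15 for FCRLA in NCI-H929 with shSIRT6. PAX5, the factor that holds B cell identity, had group means between 3.96 and 4.145. That is close to the array medians of 3.88 to 3.97, a low level. Of 18 tested, limma called 1 in MM1.S (1.33% of all tested genes) and none (0) for NCI-H929 (0.0236% of all). The medians were -0.025 and -0.10, against 0.005 and -0.045 over all tested genes. The call was FCRLA, an intracellular Fc receptor-like protein of B cells, which fell in MM1.S from 7.44 and 7.43 to 6.89 and 6.61, by 0.685 ± 0.121 on the log2 scale (adjusted p = 0.0479). In NCI-H929 it read 8.05 and 8.02 with scramble against 8.23 and 8.07 with shSIRT6, and the difference between the 2 effects, 0.80 ± 0.171, was not called (adjusted p = 0.150). The FCRLA call was lost in 14 of 17 alternatives. The complement receptor CR2 read 0.46 ± 0.117 in MM1.S (adjusted p = 0.100), and in NCI-H929 SPI1 read -0.555 (adjusted p = 0.256) and SWAP70 -0.33 (adjusted p = 0.254), none called.

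Among enzymes and relatives of SDC1, 1 of 19 tested was called in MM1.S (1.33% of all tested genes), 0 in NCI-H929 (0.0236% of all) and 1 for the difference of the shSIRT6 effects (0.204% of all), the same gene both times. SULF1, which trims sulfate from heparan sulfate chains such as those of SDC1, fell in MM1.S from 8.39 and 8.23 to 7.62 and 7.38, by 0.81 ± 0.116 on the log2 scale (limma, adjusted p = 0.0301). In NCI-H929 it read 2.94 and 2.89 with scramble against 3.68 and 3.67 with shSIRT6. The scramble values there lie under the filter level of 3.045, and that difference of 0.76 was not called (adjusted p = 0.158). The difference of the 2 shSIRT6 effects (NCI-H929 minus MM1.S) was called at 1.57 ± 0.163 (limma, adjusted p = 0.0243). The calls of SULF1 were lost in 10 of 17 and 9 of 16 alternatives. The sheddase ADAM17 read -0.415 in MM1.S (adjusted p = 0.0882), and the syndecans SDC3 and SDC4 read 0.355 and 0.465 in NCI-H929 (adjusted p = 0.254 and 0.256).

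Genes around the other surface antigens had 0 calls between constructs (limma), where 1.33% of all tested genes were called in MM1.S and 0.0236% in NCI-H929, shares at which 0 is no result about lists of this size. Around CD38, 0 of 18 tested genes of NAD metabolism were called in either line (limma), with medians of -0.0075 and 0.0175. The purine phosphorylase PNP read -0.555 ± 0.110 in MM1.S (adjusted p = 0.0635), the NAD synthesis genes NMNAT1 and NAMPT -0.525 and -0.44 (adjusted p = 0.0791 and 0.145), and the mitochondrial kinase NADK2 -0.43 (adjusted p = 0.0739). Around SLAMF7, 6 of 11 listed SLAM genes were tested with 0 calls (limma). CD48 read -0.345 ± 0.102 in MM1.S (adjusted p = 0.138), LY9 -0.315 in NCI-H929 (adjusted p = 0.278), and SLAMF6 -0.155 and 0.23 (adjusted p = 0.567 and 0.478). SLAMF1 read -0.575 and -0.585 in the 2 lines (adjusted p = 0.190 and 0.280), with shSIRT6 means of 2.915 and 2.795 under the filter level. For the ligands, relatives and adaptors of TNFRSF17, 7 of 14 were tested with 0 calls (limma), and TRAF5 in NCI-H929 read 0.50 ± 0.2385 (adjusted p = 0.385), while the gamma-secretase subunits APH1A and PSEN2 read -0.225 and -0.25 there (adjusted p = 0.357 and 0.405). Of 17 immunoglobulin genes listed, 3 were tested with 0 calls (limma). IGLL5 read 10.09 and 10.04 with scramble against 10.25 and 10.36 with shSIRT6 in MM1.S (0.24, adjusted p = 0.296). IGLL1 and PIGR read 0.395 and 0.14 there (adjusted p = 0.388 and 0.752). In NCI-H929 IGLL1, IGLL5 and PIGR read 0.685, -0.08 and 0.15 (limma, adjusted p = 0.274, 0.776 and 0.776). The scramble means of IGLL1, 3.825 in MM1.S and 3.855 in NCI-H929, lay under the lowest array median of 3.88.

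Markers of other blood and stromal cells were read as a check. Between constructs, 1.33% of all tested genes were called in MM1.S and 0.0236% in NCI-H929. At those shares 0 is no result about lists of this size. T and NK cell markers, 5 of 10 with a named row, had a mean log2 level per array of 4.22 to 4.57, highest in NCI-H929 with shSIRT6 (4.56 and 4.57, against 4.22 to 4.35 with scramble), with 0 called (limma). Monocyte and granulocyte markers, 6 of 9 with a row, lay between 3.52 and 3.83 with 0 called, and CSF1R read 0.565 in MM1.S (adjusted p = 0.109). The erythroid list held 1, EPOR, with 0 called between constructs. The stromal list had 2 of 6, VIM (-0.295 in MM1.S, adjusted p = 0.183) and FN1, and FN1 (fibronectin) fell in MM1.S from 6.61 and 6.79 to 5.78 and 5.96, by 0.83 ± 0.130 on the log2 scale (limma, adjusted p = 0.0368; lost in 11 of 17 alternatives). Between the lines, EPOR was higher in NCI-H929 by 0.52 with scramble and 0.57 with shSIRT6. VIM was higher there by 1.295 and 1.435, and FN1 was lower by -2.245 and -1.485. All of these were called (limma, adjusted p at most 0.0169). Of the T and NK cell markers 5 were tested, and of the monocyte and granulocyte markers 5, with 0 called between the lines. Over all tested genes 38.3% were called with scramble and 37.9% with shSIRT6. The part of these markers in the results on the plasma cell genes was not tested.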

How the data were processed

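Values were the authors' deposited log2 levels, 1 column per array and 1 row per transcript cluster, printed to 2 decimals. RMA, Transcriptome Analysis Console and hg19 are named in the submitters' processing notes; their versions were not given in the sources used here. No scanner output entered the work, which leaves probe background and scan batches untested. Of 48226 rows, 16098 carry 1 gene symbol in the platform annotation, 0 carry several and 32128 are unnamed here. Symbols were updated through Entrez identifiers. Columns of no sample numbered 0.

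The row with the highest mean was kept per gene, and a gene was tested if its mean exceeded a log2 level of 3.045, the 30th percentile over rows. A model with the means of the 4 groups was fitted on the 8 arrays in limma 3.58.1 under R 4.3.3 (4 residual and 3.43 prior degrees of freedom, prior SD 0.128), with Benjamini-Hochberg adjustment over all genes tested in each of the 6 contrasts (shSIRT6 effect in each line, their mean and difference, and the line difference with each construct). Intervals cover 95%. An exact permutation test of 2 arrays against 2 cannot give a two-sided p below 0.333, so none was used. Genes were called at 0.05, and the code was tested on simulated arrays.

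The genes and lists were chosen with earlier results of these data known. Named genes are the measured members and SIRT6; up to 4 genes per list with the lowest p between constructs and up to 2 with the lowest p between lines; the 2 nearest profiles of IRF4, XBP1 and SDC1; and any single call. MYC and PAX5 were named after their values were seen. Alternatives were the filter, the row per gene, normalization, the prior, the replicate block, fitting only the arrays of a contrast and leaving out each array; those for the XBP1 targets, SRP54, FCRLA, SULF1 and FN1 were added after their values were seen.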

Additional observations from a re-analysis of the deposited data

How the results depend on the processing

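The 4 line differences called with each construct kept their calls in every alternative run. Calls between constructs did not: the count of the 7 genes called in MM1.S went from 1 to 2 with the prior that follows the level and to 0 with no filter, with only the arrays of the contrast, with the replicate block and in all 8 fits without 1 array (0 to 0). That prior also gave 1 in NCI-H929, 3 for the mean and 2 for the difference of the effects. The median over the 7 genes in NCI-H929 was 0.0085 after cyclic loess and -0.115 to -0.02 without 1 array. The median over the 7 genes of the difference of the shSIRT6 effects was -0.145 to 0.005 without 1 array.

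Values near 0 that were never called changed sign. After cyclic loess MZB1 (0.0175) and SLAMF7 (0.0156) in MM1.S, SDC1 (0.0085) and XBP1 (0.0168) in NCI-H929, and XBP1 in the mean of both lines (0.0344; 0.0047 after quantile normalization) did so. Leaving out 1 array in turn gave reversals for POU2AF1 in NCI-H929 (-0.115 to 0.015) and between lines with shSIRT6 (-0.095 to 0.035), for XBP1 in MM1.S (-0.05 to 0.10), in the mean (-0.0475 to 0.0275) and in the difference (-0.145 to 0.005), and for SIRT6 in the difference (-0.395 to 0.045). The CD38 difference in NCI-H929 was -0.0865 after cyclic loess and -0.1022 after quantile normalization, against -0.17 as deposited. The cause was not tested.

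Over all genes, calls in MM1.S ran from 0 to 953 around 169, in NCI-H929 from 0 to 194 around 3, for the mean from 0 to 911 around 11 and for the difference from 0 to 430 around 26, each highest with the prior that follows the level. Same-numbered arrays of a line had deviations correlated at 0.0767 in MM1.S and -0.0011 in NCI-H929. No pairing was seen across all tested genes, but 1 correlation per line cannot show a weak pairing or one of few genes. Whether the numbers pair the arrays is thus not settled, and the replicate block ended the SDC1 call. Where a fit leaves a group with 1 array, that array is assumed to vary like the others. With 2 arrays per group and no background signal, precision is limited by the number of arrays.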

Other observations

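Several genes around the plasma cell programme differed between the 2 lines, over the scramble and over the shSIRT6 arrays, and all of the following were called with both constructs (limma, adjusted p at most 0.00434). They were chosen for a low p between lines or constructs, and 38.3% and 37.9% of all tested genes were called. With scramble, the calls were 5 higher and 4 lower in NCI-H929 of 16 other plasma cell genes and 3 and 3 of 18 B cell genes. They were 6 and 3 of 19 XBP1 targets and 8 and 7 of 17 genes around IRF4 and POU2AF1. Heparan sulfate genes had 5 and 7 of 19 and NAD genes 4 and 4 of 18. SLAM genes had 1 and 2 of 6 and genes around TNFRSF17 1 and 3 of 7. Among other plasma cell genes, FCRL5 was higher in NCI-H929 by 3.945 with scramble and 4.33 with shSIRT6, and the chemokine receptor CXCR4, which holds plasma cells in the marrow, was lower there by -2.675 and -2.89. In the B cell list, CR2 was lower in NCI-H929 by -2.43 and -3.095 and the transcription factor IRF8 by -1.045 and -1.035.

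Relatives of the surface antigens differed in opposite directions. SLAMF6 was lower in NCI-H929 by -4.88 and -4.495 and CD48 higher by 0.855 and 1.28. The heparan sulfate genes SULF1 and HS3ST3B1, a sulfotransferase, were lower by -5.395 and -3.825 and higher by 4.065 and 3.665. TRAF5, an adaptor of TNF receptors, was lower by -3.645 and -3.095. In the NAD list PNP was higher by 1.24 and 1.705 and the ectoenzyme ENPP1 lower by -2.065 and -2.27. Around the transcription factors, the NF-kB subunit REL was higher by 2.74 and 2.515, the cholesterol synthesis enzyme SQLE by 1.22 and 1.37 and the chaperone SDF2L1 by 1.225 and 1.115, while SEC23B was lower by -0.905 and -0.60. The means of SULF1 in NCI-H929 with scramble (2.915) and of FCRL5 in MM1.S with shSIRT6 (2.725) lie under the filter level of 3.045, so the sizes of -5.395 and 4.33 may rest on probes not above background. Other means lay above that level but under the lowest array median of 3.88. With scramble these were FCRL5 (3.325) and HS3ST3B1 (3.585) in MM1.S, and SLAMF6 (3.275), TRAF5 (3.755) and CR2 (3.845) in NCI-H929. With shSIRT6 they were SLAMF6 (3.505), SULF1 (3.675), CR2 (3.64) and ENPP1 (3.765) in NCI-H929. The sizes of those differences also have 1 side at a low level.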
